A study of Mus musculus with 27 samples.

Results

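The expression of 8 genes of cholesterol synthesis was measured in the epididymal adipose tissue (EAT) of 27 mice. The array's annotation gave 18193 genes a probe set assigned to a single gene, these 8 among them. The rule that sets them is a list of names, drawn up with earlier results of these data known, and all 8 on it had a probe set. Of these, 7 code for enzymes of the pathway from acetyl-CoA to cholesterol (Hmgcs1, Idi1, Fdps, Fdft1, Sqle, Lss and Cyp51), and Srebf2 codes for the transcription factor SREBP2. None of the 8 takes up LDL, so they are called cholesterol synthesis genes here, and uptake genes were followed as a separate list.

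Male C57BL/6J mice, 5 weeks old on arrival and acclimated for 1 week, received one of 3 diets for 18 weeks, with 9 mice and 1 array per mouse in each group. The WQ mice ate a Western diet with 0.05% quercetin, a flavonol found in onions and other plants. The WD mice ate this Western diet alone, with 39.9% of energy from fat and 34.0% from sucrose, and with 20% butter, 1% soy oil and 0.15% cholesterol. The Control mice ate the purified AIN93G diet. Each cage housed 3 mice, and which mice shared one is unknown, so cage mates may not be independent, and the p-values measure the spread between mice. The question put to these genes was whether the Western diet changed the pathway in EAT and whether quercetin changed it further.

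Cells make cholesterol from acetyl-CoA through mevalonate, the isoprenoid diphosphates, squalene and lanosterol. When sterols in the endoplasmic reticulum run low, SCAP carries SREBP2 to the Golgi, where proteases release its active part, and the genes of the pathway are transcribed. When sterols are plentiful, INSIG proteins hold SCAP and SREBP2 back. Adipocytes store much of the body's free cholesterol in and around their lipid droplet and take up more of it from lipoproteins than they synthesise.

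All signals are log2 of the fluorescence of a probe set after quantile normalization, which gives every array the same distribution of signals. A difference of 1 is a factor of 2. A level is compared between mice for the same gene only, since probe sets differ in brightness. Differences were tested with limma over all genes, and a gene was called higher or lower at a Benjamini-Hochberg adjusted p under 0.05. As bulk tissue was measured, fewer cells of a type and less RNA per cell cannot be told apart.

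The array signals had medians between 25.2 and 54.4 units before normalization. The mean log2 signal of 10 adipocyte markers lay between 12.5 and 12.7 in WQ mice, between 12.5 and 12.7 in WD mice and between 12.3 and 12.7 in Control mice, so the labelled tissue carried its markers on every array. Of the 27 arrays, 7 stood apart by markers of germ cells of the testis, which lies beside this fat pad, with a mean more than 2 above that of the median array: WQ replicates 1, 3 and 5, WD replicate 7, and Control replicates 4, 6 and 9. Control replicate 6 had the highest mean of these 7 markers, 12.7, and the median Control mouse had 4.73. Control replicates 2 and 3 exceeded the same limit with markers of smooth muscle, lymph node or epididymis. Control replicates 1 and 5 exceeded it with 6 markers of mesothelium, the lining of the fat pad (means of 7.22 and 6.94), and were kept. The results below are given for all 27 arrays, and with these 7 or 9 arrays left out where that ended a call or moved a called difference by more than 1.5 times.

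Of the 8 genes, 4 were higher and 1 was lower on the Western diet. Lss, Fdps, Hmgcs1 and Cyp51 were higher in WD than in Control mice, Fdft1 was lower, and Idi1, Sqle and Srebf2 did not pass the test. Of all genes, 11.3% were called higher and 6.42% lower in this comparison. The median difference of the 8 genes was 0.42, and that of all genes was 0.00029. WQ mice showed 5 of the 8 genes above Control mice, the 4 named and Idi1, and none below, where 5.01% of all genes were called higher and 1.65% lower. Their median difference was 0.55, beside 0.03 for all genes. Between WQ and WD mice none of the 8 passed the test, and 0.253% of all genes were called higher and 0.0824% lower. Fdft1 alone had an unadjusted p under 0.05 there, and it was higher, as 7.29% of all genes were by that rule. The comparisons share groups of mice, so their values are set side by side and not as independent evidence. Without the 7 arrays with testis markers, 3 genes were higher and 1 lower in WD than in Control mice, 4 were higher in WQ than in Control mice, and none passed between WQ and WD mice.

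The promoters of 4 enzymes that were higher on a Western diet are shown because the factors of this pathway are known to act near the gene start: SREBP2 binds sterol regulatory elements, together with NF-Y at CCAAT boxes and Sp1 at GC boxes. RefSeq promoters (build GRCm38.p6, 250 bases before to 50 bases after the start) were at hand for 5 of the 8 genes, Hmgcs1, Idi1, Lss, Cyp51 and Srebf2. The window of Lss is set on a start downstream of the gene start given below, 76531565. The 4 printed are Hmgcs1, chr13:119690101-119690400, plus strand; Idi1, chr13:8885356-8885655, plus strand; Lss, chr10:76531355-76531654, plus strand; and Cyp51, chr5:4104648-4104947, minus strand. Each is written 5′ to 3′ on the strand of its gene, and capitals mark matches to TCACNCCAC, the core of a sterol regulatory element, and to the CCAAT box, both searched on either strand.
Hmgcs1: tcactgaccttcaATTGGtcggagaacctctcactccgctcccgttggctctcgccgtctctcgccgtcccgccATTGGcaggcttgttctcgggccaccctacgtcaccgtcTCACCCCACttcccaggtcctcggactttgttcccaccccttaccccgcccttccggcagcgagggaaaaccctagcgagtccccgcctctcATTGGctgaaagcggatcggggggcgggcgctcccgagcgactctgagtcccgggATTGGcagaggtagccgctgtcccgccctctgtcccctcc
Idi1: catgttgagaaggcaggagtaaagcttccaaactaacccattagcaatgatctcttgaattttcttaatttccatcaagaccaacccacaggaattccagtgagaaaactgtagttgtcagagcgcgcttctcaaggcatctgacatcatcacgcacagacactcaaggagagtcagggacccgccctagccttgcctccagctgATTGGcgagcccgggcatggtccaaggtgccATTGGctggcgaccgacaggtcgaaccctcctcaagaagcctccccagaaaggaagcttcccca
Lss: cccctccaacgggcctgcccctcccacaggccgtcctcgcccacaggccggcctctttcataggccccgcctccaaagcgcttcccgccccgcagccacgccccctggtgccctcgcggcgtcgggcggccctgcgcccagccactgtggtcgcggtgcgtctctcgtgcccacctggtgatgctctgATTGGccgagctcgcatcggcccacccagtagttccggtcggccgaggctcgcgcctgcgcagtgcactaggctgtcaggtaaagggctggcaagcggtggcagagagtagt
Cyp51: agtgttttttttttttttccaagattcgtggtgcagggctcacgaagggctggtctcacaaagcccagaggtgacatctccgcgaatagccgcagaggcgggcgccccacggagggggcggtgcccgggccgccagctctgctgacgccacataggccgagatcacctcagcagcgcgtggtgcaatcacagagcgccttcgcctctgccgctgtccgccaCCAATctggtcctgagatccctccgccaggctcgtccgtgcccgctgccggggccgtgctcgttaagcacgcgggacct

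The TCACNCCAC core was found in 1 of the 5 promoters, that of Hmgcs1 at position -137 from the start, and in 1.24% of all 32851 promoters of the table. CCAAT was found in 5 of 5 promoters, against 37.4% of all. GGGCGG, the GC box, was also found in 5 of 5 promoters, against 35.7% of all. Both boxes were common in other enzymes of the pathway too. Of 15 promoters of 12 such genes, 11 held CCAAT (73.3%), 12 held GGGCGG (80%) and 0 held TCACNCCAC. The motifs did not overlap one another in the sequences shown. Hmgcs1 held 4 CCAAT matches, Idi1 held 2, and Lss, Cyp51 and Srebf2 held 1 each. These are matches of letters in a window, with no measurement of binding. Srebf2, which did not pass the test in any comparison, held both boxes as well.

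The pathway opens with Hmgcs1, the cytosolic HMG-CoA synthase, which joins acetoacetyl-CoA with acetyl-CoA (chromosome 13, 119690351 to 119708260, GRCm38.p6). The lowest, median and highest signals were 11.91, 12.47 and 12.66 in WQ mice, 12.22, 12.41 and 12.68 in WD mice, and 11.32, 11.79 and 12.31 in Control mice. For this gene 7 of 9 WD mice lay above the highest Control mouse, and 8 of 9 Control mice lay below the lowest WD mouse, so the groups overlapped only at their edges. WQ and WD mice overlapped broadly, with 1 WQ mouse below every WD mouse. The difference was 0.67 ± 0.12 (SE) for WD minus Control, a 1.59-fold level, with adjusted p = 2.9e-04 by limma, and 0.64 ± 0.12 for WQ minus Control (adjusted p = 0.0024). For WQ minus WD it was -0.03, with a 95% interval of -0.28 to 0.21. Of the 5 probe sets that report Hmgcs1, all were higher in WD than in Control mice (differences of 0.52 to 1.15), and 4 of the 5 passed the test over probe sets.

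**Figure D1:**
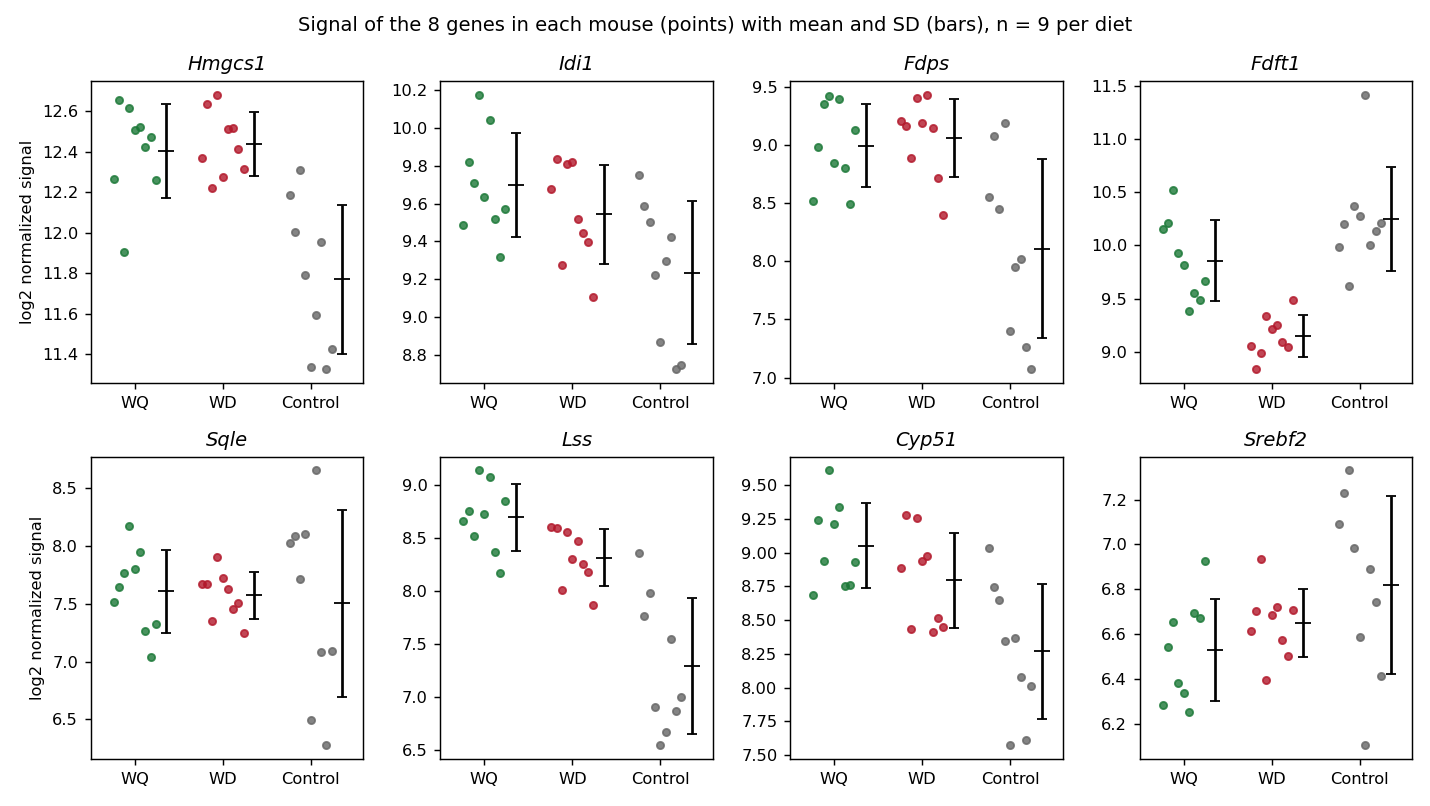
Log2 normalized signal (vertical axes) of each of the 8 genes in every mouse (points), by diet (WQ, WD and Control), with the mean and SD beside each group of 9. All 9 WD points of Fdft1 lie below all 9 Control points, the Control points of Lss lie mostly below both Western diet groups, and the Control points of Sqle spread over the widest range.

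The next members act on the isoprenoid diphosphates. Idi1 codes for isopentenyl-diphosphate isomerase, which turns isopentenyl diphosphate into dimethylallyl diphosphate (chromosome 13, 8885606 to 8892396). Its signals were 9.32, 9.64 and 10.18 (lowest, median, highest) in WQ mice, 9.10, 9.52 and 9.84 in WD mice, and 8.72, 9.29 and 9.75 in Control mice. All 9 WQ mice were above the Control mean, yet only 3 were above the highest Control mouse. The difference was 0.46 ± 0.14 for WQ minus Control (limma adjusted p = 0.042), 0.31 ± 0.14 for WD minus Control (adjusted p = 0.13) and 0.15 ± 0.14 for WQ minus WD (adjusted p = 0.70). The call for WQ minus Control was near the threshold: it was lost with 10 of the 27 arrays when each was left out alone, where the difference stayed between 0.40 and 0.53, with the 7 arrays left out, where it was 0.44, and with the 9 left out, where it was 0.56. A second probe set of Idi1 differed by 0.94 between WQ and Control mice (adjusted p = 7.0e-04 over probe sets). It did not pass for WD minus Control (0.39, adjusted p = 0.088 over probe sets) or for WQ minus WD (0.55, adjusted p = 0.11).

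Fdps, farnesyl diphosphate synthase, builds the branch point from which squalene, dolichol, ubiquinone and prenyl groups derive (chromosome 3, 89093588 to 89101967). It had signals of 8.49, 8.98 and 9.42 in WQ mice, 8.40, 9.16 and 9.43 in WD mice, and 7.07, 8.02 and 9.19 in Control mice. The Control mice spread widely, with an SD of 0.77 against 0.36 in WQ and 0.34 in WD mice, and 5 of them lay below every WD mouse. The difference was 0.95 ± 0.23 for WD minus Control (adjusted p = 0.0046), a 1.94-fold level, and 0.89 ± 0.23 for WQ minus Control (adjusted p = 0.022). WQ and WD mice differed by -0.07, with an interval of -0.55 to 0.41. A second probe set of Fdps had a mean of 0.38, near the floor of the scale, and averaging it in ended both calls (0.40 for WD minus Control and 0.17 for WQ minus Control). Over 16 alternatives the call held in 14 for WD minus Control and in 11 for WQ minus Control.

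Fdft1, squalene synthase, takes the first step committed to sterols by joining a pair of farnesyl diphosphates (chromosome 14, 63145150 to 63181687). It was the only one of the 7 enzymes to be lower on the Western diet. Its signals were 9.38, 9.81 and 10.52 in WQ mice, 8.83, 9.09 and 9.49 in WD mice, and 9.62, 10.20 and 11.42 in Control mice. All 9 WD mice were below all 9 Control mice, a separation that 0.346% of all genes showed in this direction, while the WQ mice overlapped both groups, with 7 above the highest WD mouse and 3 below the lowest Control mouse. The difference was -1.10 ± 0.17 for WD minus Control (adjusted p = 5.3e-05 by limma), which is 0.466 times the Control level. WQ minus WD was 0.71 ± 0.17, 1.64-fold, with an adjusted p of 0.053 that just missed the threshold, and all 9 WQ mice were above the WD mean. WQ minus Control was -0.39 ± 0.17 (adjusted p = 0.16). Control replicate 6, with the most testis marker signal, had the highest value. Without the 7 arrays with testis markers the difference for WD minus Control was -0.89 and still passed, and that for WQ minus WD was 0.56 and did not. WQ minus WD passed the test when Control replicate 3 or 6, WD replicate 9 or WQ replicate 6 or 8 was left out alone (0.71 to 0.77). Of the 4 probe sets of Fdft1, all 4 were lower in WD than in Control mice (-1.10 to -0.96), and 2 passed; the other two had means under 3. For WQ minus WD the second of the brighter probe sets gave 0.44 (adjusted p = 0.25 over probe sets), against 0.71 for the one used.

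Sqle, squalene epoxidase, adds the oxygen that lets squalene fold into a sterol (chromosome 15, 59315092 to 59331193). It had signals of 7.04, 7.64 and 8.17 in WQ mice, 7.25, 7.63 and 7.90 in WD mice, and 6.27, 7.72 and 8.66 in Control mice. The Control mice reached both above and below every WD mouse, 4 on each side. The difference was 0.07 for WD minus Control, with a 95% interval of -0.41 to 0.55, 0.11 for WQ minus Control (-0.37 to 0.58) and 0.04 for WQ minus WD (-0.44 to 0.51). The interval for WD minus Control includes a difference as large as the 0.52 of Cyp51. Without the 9 arrays that stood apart, WD minus Control was 0.63 and did not pass.

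Lss, lanosterol synthase, closes squalene epoxide into the first sterol (chromosome 10, 76531565 to 76557139). With the probe sets used, it showed the largest rise of the 8 genes over the Control diet. For WD minus Control, Fdps was close at 0.95, and another probe set of Hmgcs1 gave 1.15. The signals of Lss were 8.16, 8.72 and 9.13 in WQ mice, 7.86, 8.30 and 8.60 in WD mice, and 6.54, 6.99 and 8.36 in Control mice. In WQ mice 8 of 9 were above the highest Control mouse, and 8 of 9 Control mice were below the lowest WQ mouse. The difference was 1.40 ± 0.20 for WQ minus Control (adjusted p = 9.7e-05), 2.64-fold, and 1.02 ± 0.20 for WD minus Control (adjusted p = 5.0e-04), 2.03-fold. For WQ minus WD it was 0.38, with an interval of -0.02 to 0.78 (adjusted p = 0.40), although 6 WQ mice were above the highest WD mouse. All 3 probe sets of Lss were higher in WD and in WQ mice than in Control mice, and all 3 passed in both comparisons.

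Cyp51, lanosterol 14-alpha-demethylase, removes the first methyl group from lanosterol (chromosome 5, 4080674 to 4104697). Its signals were 8.69, 8.94 and 9.61 in WQ mice, 8.41, 8.89 and 9.28 in WD mice, and 7.57, 8.35 and 9.03 in Control mice. All 9 mice of either Western diet group were above the Control mean, yet only 4 WQ and 2 WD mice were above the highest Control mouse, so the groups overlapped broadly. The difference was 0.78 ± 0.18 for WQ minus Control (adjusted p = 0.0085), 0.52 ± 0.18 for WD minus Control (adjusted p = 0.038) and 0.26 ± 0.18 for WQ minus WD (adjusted p = 0.57). The call for WD minus Control was near the threshold: it was lost with 9 of the 27 arrays when each was left out alone (0.44 to 0.62 over the 27), and without the 7 testis marker arrays (0.56). Of the 3 probe sets of Cyp51, all were higher in both Western diet groups than in Control mice and 2 passed in each comparison; the one that did not gave 0.36 for WD minus Control (adjusted p = 0.35 over probe sets) and 0.68 for WQ minus Control (0.091).

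Srebf2 codes for SREBP2, the factor that transcribes the pathway and whose activity is set by cleavage of the protein, which an array does not measure (chromosome 15, 82147269 to 82205379). Its signals were 6.25, 6.54 and 6.92 in WQ mice, 6.40, 6.69 and 6.94 in WD mice, and 6.11, 6.89 and 7.33 in Control mice. The groups overlapped fully, with 4 Control mice above every WD mouse and 1 below every WD mouse. The difference was -0.17 for WD minus Control, with an interval of -0.45 to 0.11, and -0.12 for WQ minus WD (-0.40 to 0.15). WQ minus Control was -0.29 (-0.57 to -0.02), with an adjusted p of 0.20, and it passed only without Control replicate 6 among the arrays left out one at a time, where it was -0.38. A second probe set of Srebf2 moved the other way in WD against Control mice, by 0.38 (adjusted p = 0.20 over probe sets). It gave 0.03 for WQ minus Control (adjusted p = 0.96 over probe sets) and -0.35 for WQ minus WD (adjusted p = 0.46).

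When the 3 diets were tested together by limma's F test, 6 of the 8 genes passed, Sqle and Srebf2 being the exceptions, where 16% of all genes passed. Idi1 did so at an adjusted p of 0.0499.

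Around these members, the other enzymes of the pathway gave a similar picture. Of 14 further enzymes listed, 11 were measured, and 6 were higher in WD than in Control mice, none lower, with a median difference of 0.49. Dhcr7, which takes 7-dehydrocholesterol to cholesterol, differed by 1.25 (adjusted p = 4.0e-04), and Nsdhl, which removes the methyl groups at carbon 4 of the sterol ring with its partners, by 1.03. Ebp, the sterol isomerase, and Mvk, mevalonate kinase, differed by 0.69 and 0.49. Of the 11, 7 were higher in WQ than in Control mice, with a median of 0.55, and Pmvk, the phosphomevalonate kinase, was among them at 0.80 while its 0.34 in WD mice did not pass. None of the 11 passed for WQ minus WD, and their median was 0.05.

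**Figure D2:**
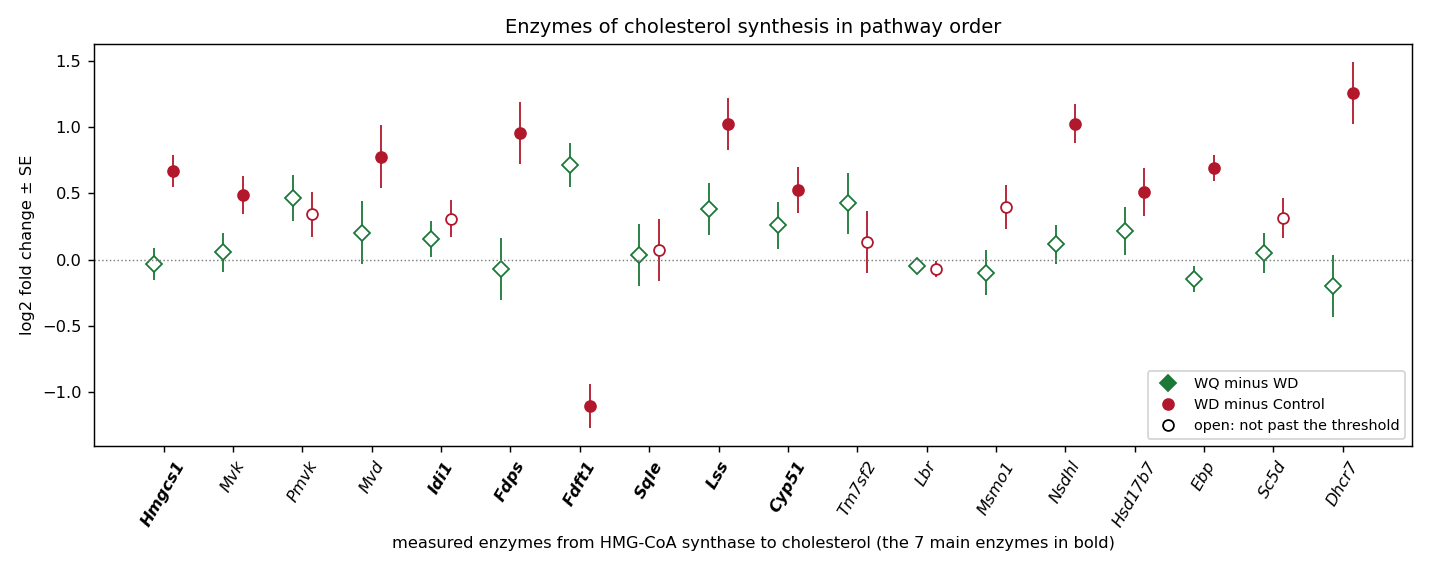
Log2 fold change ± SE (vertical axis) of 18 measured enzymes in the order in which they act (horizontal axis), for WQ minus WD (diamonds) and WD minus Control (circles), with filled symbols for an adjusted p under 0.05. No diamond is filled, 10 circles are filled above 0, and Fdft1 is the only filled circle below 0, at -1.10.

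Genes next to the sterol route were counted in the same way. Of 5 measured enzymes of the isoprenoid branch (6 listed), Fntb, the beta subunit of protein farnesyltransferase, was higher in WD than in Control mice (0.47), and Fnta, the alpha subunit, was lower (-0.31, adjusted p = 2.4e-04). Fnta was also the only gene of all these lists called between WQ and WD mice, at 0.26 (adjusted p = 0.045). That call was lost without the 7 arrays with testis markers, where no gene at all passed between WQ and WD mice. The call of Fnta was also lost with the mean of all probe sets and without a variance trend, where again no gene passed. With a median shift no gene was called higher in WQ than in WD mice. It was lost as well when WD replicate 7 or WQ replicate 1, 2, 3 or 4 was left out alone. Of 9 measured genes that process or restrain SREBP (11 listed), Insig1, whose protein retains SCAP and which SREBP itself transcribes, was higher by 1.12 in WD and by 1.27 in WQ than in Control mice (adjusted p = 8.5e-04 and 0.0014). Insig2, its relative that is less tied to SREBP, was lower in WD mice, by -0.33 (adjusted p = 0.047), and the other 7 did not pass for WD minus Control or for WQ minus Control.

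Of 6 measured genes of LDL uptake (9 listed), 3 were higher in WD than in Control mice and none lower: Lrp1, a large endocytic receptor (0.63), Mylip, the ubiquitin ligase that degrades the LDL receptor family and is induced by sterols (0.61), and Scarb1, the HDL receptor (0.30). In WQ mice Mylip and Scarb1 were higher than in Control mice, by 0.44 and 0.50. Of 8 measured genes of cholesterol export and esterification (10 listed), 6 were higher in WD than in Control mice, among them Lipa, the lysosomal acid lipase (1.70), Abcg1, which exports cholesterol to HDL (1.36), and Npc1 and Npc2, which move cholesterol out of lysosomes (0.53 and 0.52). Of the same 8, 3 were higher in WQ than in Control mice, Lipa (0.96), Abcg1 (0.95) and Npc2 (0.44), and none passed for WQ minus WD. Of the 12 macrophage markers described next, 11 were called higher in WD than in Control mice too. Acss2, which makes acetyl-CoA from acetate, was the only one of 6 further SREBP2 targets called, higher by 1.05 in WD and by 1.58 in WQ than in Control mice. Of 7 lipogenic targets of SREBP1, 1 passed for WD minus Control, Acaca, acetyl-CoA carboxylase, at -0.87, and 1 for WQ minus Control, Me1, malic enzyme, at 0.47.

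Markers of other cells and of RNA quality moved with diet beside these results. The mean log2 signal of 12 macrophage markers was 9.06 in WQ, 9.86 in WD and 8.28 in Control mice, with ranges of 8.15 to 9.80, 9.03 to 10.4 and 7.66 to 9.12. It was higher in WD than in Control mice (exact permutation test of 9 against 9 mice, two-sided, adjusted p = 7.4e-04 over 18 such tests) and lower in WQ than in WD mice (exact adjusted p = 0.026), and 11 of the 12 markers were called higher in WD than in Control mice. Smooth muscle markers averaged 7.12 in WD and 8.61 in Control mice, and mesothelial markers 4.58 in WD and 6.03 in Control mice (exact adjusted p = 0.026 and 0.033). Smooth muscle means ranged from 6.66 to 7.95 in WD and from 6.87 to 12.0 in Control mice, with medians of 6.96 and 7.85. The highest were Control replicates 2 and 4, both among the 9 arrays that stood apart, and the difference without them was not computed. Mesothelial means ranged from 2.38 to 6.01 in WD and from 4.74 to 7.22 in Control mice. The adipocyte markers differed by -0.02 for WD minus Control and by 0.05 for WQ minus WD (exact adjusted p = 0.75 and 0.31). Of the 10, 1 was called higher in WD than in Control mice, Lep, leptin (0.88), and 1 lower, Slc2a4, the insulin-regulated glucose transporter (-0.70).

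The log2 ratio of the 3′ over the 5′ actin probe sets, which grows as RNA is degraded, was 1.16 in WQ and 0.81 in WD mice (exact adjusted p = 7.4e-04), and 0.81 in WD and 1.05 in Control mice (exact adjusted p = 0.026). The same ratio for Gapdh was 0.19 in WQ and -0.05 in WD mice (exact adjusted p = 0.026), and -0.05 in WD and 0.14 in Control mice (exact adjusted p = 0.11). Their part, and that of macrophage, smooth muscle and mesothelial RNA, in the differences of the cholesterol synthesis genes was not tested.

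Among mice on the same diet, most of the enzymes varied together. Each gene's signal was taken as its deviation from the mean of its diet, and the 28 pairs of the 8 genes were correlated over the 27 mice, with permutation within diets and adjustment over the 28 pairs. Pearson's r passed in 14 pairs, and both r and Spearman's rho in 13. The share of all gene pairs that would pass was not computed, so the count does not set these genes apart from others. Genes outside the pathway lists reached r as high with single members, such as Hephl1 with Lss (0.92). Without normalization, r passed in 21 pairs and all 28 were positive. Idi1 and Cyp51 were the closest pair (r = 0.89, rho = 0.88, permutation p = 1e-05 for both, the smallest that the 100000 resamples can give, adjusted p = 9.3e-05), with r = 0.86 without the 2 mice farthest from the median of Idi1. Within diets their r was 0.92 in WQ, 0.87 in WD and 0.90 in Control mice. The 15 pairs among Hmgcs1, Idi1, Fdps, Sqle, Lss and Cyp51 were all positive over the 27 mice, with a median r of 0.73. Within diets the median was 0.74 in WQ, 0.82 in WD and 0.79 in Control mice, and in WQ mice 14 of the 15 were positive, with Hmgcs1 and Fdps at -0.077 and Hmgcs1 at 0.18 with Sqle, 0.32 with Lss and 0.35 with Idi1. These 6 were set apart after the correlations were seen, so this is a description, and genes of one mouse share its RNA, its array and its tissue composition.

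In Control mice the shared variation is visible mouse by mouse: replicates 1, 2 and 3 held the 3 highest signals of Hmgcs1, Idi1, Lss and Cyp51, and replicates 5, 8 and 9 held the 3 lowest of Hmgcs1, Idi1, Fdps and Cyp51. Replicates 2, 3 and 9 are among the 9 arrays that stood apart, and replicates 1 and 5 had the 2 highest means of the mesothelial markers.

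The pairs with Fdft1 and Srebf2 depended on the scaling, and some of those with Fdft1 on Control replicate 6. After quantile normalization the r of Fdft1 with each of the 6 enzymes lay between -0.42 and 0.35, none of the 6 passed, and without normalization those below 0 turned positive. Its r with Srebf2 was -0.52 (rho = -0.37, permutation adjusted p = 0.042 and 0.13), -0.38 without the 2 mice farthest from the median, and 0.13 without normalization. Without Control replicate 6 it was -0.24 and did not pass (permutation adjusted p = 0.36). In that setting the r of Fdft1 with Hmgcs1 passed at -0.44 (permutation adjusted p = 0.042 for r and 0.30 for rho). The r of Srebf2 with Hmgcs1 was -0.36 in WQ, -0.62 in WD and 0.77 in Control mice, and with Lss it was -0.45 in WQ, -0.42 in WD and 0.77 in Control mice. The negative values depended on the scaling, which was changed here after the correlations were seen. With a median shift, r with Hmgcs1 was -0.15 in WQ, -0.24 in WD and 0.91 in Control mice, and without normalization it was 0.060, -0.019 and 0.93 in the same order. Without normalization, r with Lss was -0.22 in WQ, 0.11 in WD and 0.82 in Control mice. The positive values in Control mice held in the settings named, each rests on 9 mice, and the difference between diets was not tested.

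**Figure D3:**
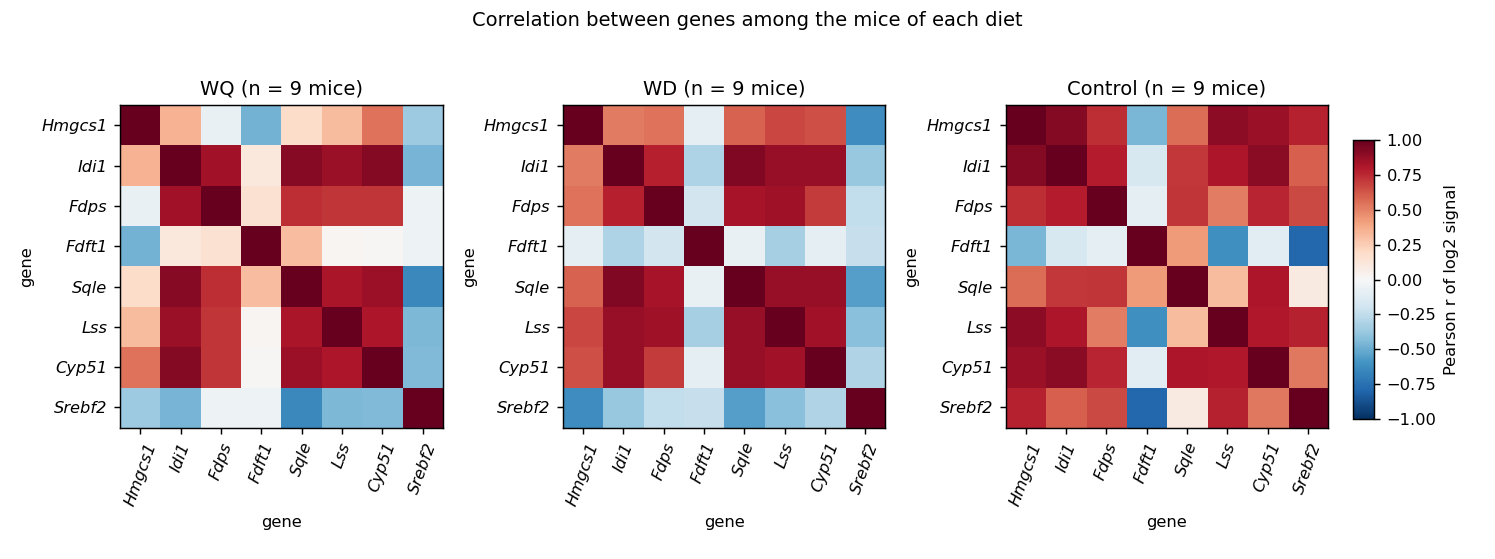
Pearson r of log2 signal (colour, from -1 to 1) between each pair of the 8 genes among the 9 mice of each diet (WQ, WD and Control panels, genes on both axes). The enzymes other than Fdft1 are mostly red in all 3 panels, and the row of Srebf2 is blue against Idi1, Lss and Cyp51 in WQ and WD mice and red in Control mice; without normalization r with Lss was 0.11 in WD mice.

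Over 9096 genes with a mean signal above the median, the deviations of Idi1 were most like those of Cyp51, and those of Cyp51 most like those of Idi1. For Lss the nearest genes were Hephl1 (r = 0.92), Snx7 (0.88) and Fam110c (0.88), and Hmgcs1 was nearest to Paqr9 (0.89), Trp53inp2 (0.86) and Ncan (0.85). The nearest to Fdps was Cth (0.89), to Sqle Ggct (0.87), to Fdft1 Med28 (0.87) and to Srebf2 Tle4 (0.82). Likeness was r over the 27 mice, with diet means removed, and is a description.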

How the data were processed

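RNA of the EAT of each mouse was hybridised to an Affymetrix mouse genome array. The labels' extraction text names liver, while every sample's tissue label and the study's methods name EAT. Microarray Suite and GeneSpring gave the authors the signal intensities they deposited, on a linear scale and with unequal medians between arrays. Here all 45101 probe sets were quantile normalized, values under 1 were set to 1, and log2 was taken. Where a gene had several probe sets, the one with the highest mean stood for it, and 932 probe sets shared by several genes were dropped. Gene names came from the platform annotation, updated through RefSeq.

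Genes were tested with limma 3.58.1 (R 4.3.3, variance trend, 27 arrays, Benjamini-Hochberg over 18193 genes); the procedure was tested on simulated data. The 8 genes, the lists and the tests were chosen with earlier results of these data known. All 8 genes are named in every comparison, and of the other lists at most 4 genes called per list and comparison. An array was left out for markers when its mean of the testis list, or of any of the testis, epididymis, lymph node and smooth muscle lists, exceeded the median array by more than 2; the mesothelial list was not used for this. Array number limits the precision. Alternatives covered normalization, floor, filter, probe set choice, the study's Tukey test, array weights and left-out arrays.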

Additional observations from a re-analysis of the deposited data

Results flagged for a closer look

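Of the 24 sets of 9 signals (8 genes on 3 diets), 1 held a sample far from the others by Dixon's test: Fdft1 in Control replicate 6 had a log2 signal of 11.4, the highest of 9, with a gap to the next mouse above the critical share of the range. Chance gives about 1 such set in 20. The same array had the highest testis germ cell marker signal of the 27, and the part of that RNA in its Fdft1 signal was not tested. Without it, Fdft1 was still called lower in WD than in Control mice.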

How the results depend on the processing

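In 16 alternatives and 27 fits that left out 1 array each, Hmgcs1, Lss and Fdft1 kept their calls for WD minus Control, and Hmgcs1 and Lss theirs for WQ minus Control. Cyp51 kept its call for WD minus Control in 9 of 16 and 18 of 27 (lost without Control replicate 5, 7, 8 or 9, or WD replicate 1, 2, 4, 5 or 6), and Fdps kept its calls in 14 of 16 for WD minus Control and 11 of 16 for WQ minus Control (all 27 for both). Idi1 kept its call for WQ minus Control in 7 of 16 and 17 of 27 (lost without Control replicate 4, 5, 8 or 9, or WQ replicate 2, 4, 5, 6, 7 or 9). Fdft1 passed for WQ minus WD in 5 of 16.

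The number of the 8 genes called higher in WQ than in WD mice, 0, was 1 with genes above the median mean only, with array weights, with the methods' Tukey test with or without adjustment, and with only both diets fitted, and 0 to 1 with 1 array left out. In WQ against Control mice it was 2 without normalization, and 3 with the adjusted Tukey test, at an adjusted p under 0.01 and with both diets alone, instead of 5 (4 to 5 with 1 array left out), and the number lower was 0 to 1. In WD against Control mice it was 2 with the mean of all probe sets, instead of 4 (3 to 4 with 1 array left out).

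Over all genes, 61 were called in WQ against WD mice. This count was 3 without normalization and with a median shift, 200 among genes above the median mean, 0 with the mean of all probe sets, without a variance trend, at 0.01 and without the 7 testis marker arrays, 1 without the 9 arrays, 1379 with array weights, 1407 and 1006 with the Tukey test before and after adjustment, 773 with both diets alone and 8 with the replicate number as a block. With 1 array left out it ran from 0 (WD replicate 7, or WQ replicate 1, 2, 3 or 4) to 304 (Control replicate 6). In WD against Control mice the 3220 genes became 1817 without normalization, 5102 probe sets, 2000 with the adjusted Tukey test and 1701 at 0.01 (2722 to 3980 with 1 array left out). In WQ against Control mice the 1212 genes became 306 without normalization, 499 with a median shift, 2019 probe sets, 2268 with the unadjusted Tukey test, 300 at 0.01, 440 with both diets alone and 751 without the 7 arrays (708 without WQ replicate 4 to 1869 without Control replicate 3). The share of higher among called genes for WD minus Control was 63.7%, 80.0% with a median shift, 53.1% with array weights, 54.4% without the 7 arrays and 53.8% without the 9; for WQ minus Control it was 75.2%, and 56.1% and 57.1% without them.

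Replicate numbers were not taken to pair mice: same-numbered mice correlated at -0.51 to 0.37, and the block changed no call of the 8 genes.

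Some differences that had not passed changed sign. Hmgcs1 for WQ minus WD was 0.025 without normalization, 0.022 with array weights, 0.065 without the 7 arrays and 0.066 without the 9 (-0.066 to 0.028 with 1 array left out). Sqle for WQ minus WD was -0.058 with a median shift, -0.021 without the 7 arrays and -0.021 without the 9 (-0.034 to 0.11 with 1 array left out), and with 1 array left out Sqle ran from -0.084 to 0.21 for WD minus Control and from -0.048 to 0.25 for WQ minus Control. Srebf2 for WD minus Control was 0.10 with the mean of its probe sets. Without normalization, r of Fdft1 was 0.10 with Hmgcs1, 0.38 with Idi1, 0.33 with Fdps (0.032 with a median shift), 0.087 with Lss, 0.35 with Cyp51 and 0.13 with Srebf2, and r of Sqle with Srebf2 was 0.44 (0.23 without Control replicate 6). The adipocyte mean differed by -0.022 for WQ minus WD and by 0.075 for WD minus Control with a median shift, and without normalization the lymph node mean by 0.10 for WQ minus WD and the smooth muscle mean, no longer passing, by -1.53 for WD minus Control. The cause of these changes was not tested.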
